A study of Mus musculus with 68 samples.

Results

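Alveolar septa of smoke-exposed mouse lungs labelled as overexpressing Fgf10 were compared with septa of smoke-exposed controls, on 10 of the 68 arrays of the series. The arrays were taken by their titles, 5 per group, and not by a measured value. The comparison itself was chosen with earlier results of these data known. All 10 come from the 8-month arm, in which mice breathed cigarette smoke for 8 months and then had 1 week with or without doxycycline, the drug that switches tetracycline-controlled transgenes. The overexpression group is labelled "overexpressing" and the control group "wild-type" for Fgf10. Septa were cut out by laser microdissection and their total RNA was amplified before hybridisation with 1 dye (Cy3). The labels give no strain, sex or age, no promoter or cell type that drives the transgene, and no statement of which controls received doxycycline or carry a transgene. The growth protocol, identical for all samples, speaks of 3 months of smoke, against the titles; the titles were followed. The 5 room air septa arrays of the same arm are shown for their levels, without a test. The comparison asks what Fgf10 given after chronic smoke changes in the gas-exchange tissue.

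Fibroblast growth factor 10 is secreted by lung mesenchyme, in the adult mainly by lipofibroblasts next to alveolar type 2 cells, and binds the epithelial splice form of its receptor, Fgfr2b. The signal runs through the ERK kinases to the ETS factors Etv4 and Etv5, and induces its own brakes, the Sprouty proteins and the phosphatase Dusp6. In the developing lung it drives branching, and in the adult alveolus it maintains and expands type 2 cells. Chronic smoke is known to load septa with lipid-laden macrophages and to break down elastin, the protein of elastic recoil.

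All values are log2 intensities, so a difference of 1 is a doubling of signal, and every difference is the mean of the overexpression arrays minus the mean of the smoke controls. A signal under 5.32, the percentile of 40 of an array, is called near background, and a difference set against it has no exact size. Markers of septal cells were high on each array: type 1 cell Ager read 14.55 or more, type 2 cell Sftpc 15.17 or more and endothelial Cdh5 13.64 or more. They were not set against the vessel arrays, so they do not test how cleanly septa were cut. Other cells were present as well. Airway Scgb1a1 read 13.54 or more, macrophage Chil3 12.15 or more, neutrophil S100a9 13.24 or more and T cell Cd3d 9.27 or more on all 10 arrays. T cell Cd3e read 8.24 or more, but T cell Cd8a was above background on 5 of 5 overexpression arrays and 3 of 5 smoke controls. Airway Scgb3a2 read 8.27 or more, but airway Foxj1 was above background on 0 of 5 overexpression arrays and 2 of 5 smoke controls. Vascular smooth muscle Acta2 read 12.16 or more, Myh11 8.52 or more and Cnn1 6.87 or more on all 10. Skeletal muscle markers were mixed, with Ckm near background on 9 arrays and Myh4 above it on all 10. Cardiac markers were mixed too, with Actc1 above background on all 10, Myh6 on 6 and Myl7 on 4. Fat cell Adipoq was near background on 9. Smoke control replicate 4 stood apart. Its median correlation with the other septa arrays was 0.745, against 0.88 to 0.945 for the other 9 arrays, and it held the highest or the lowest value of the 10 for 57.2% of genes tested, against 7.19% to 31.8% for the others. For list medians that change sign without it, and for named genes that lose an unadjusted p under 0.05, the outcome without it is given.

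Fgf10 itself was read by 3 probes, and the probes differed in direction. On the brightest probe the overexpression arrays read 6.88, 7.75, 9.22, 8.76 and 8.43 for replicates 1 to 5. The smoke controls read 10.83, 8.83, 7.81, 8.58 and 9.01 on it. The groups overlapped, and the difference was -0.80 (exact two-sided permutation p = 0.262, and 0.262 adjusted over the 3 probes). On this probe the means were 8.21 on overexpression arrays, 9.01 on smoke controls and 8.22 in room air.

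On the middle probe the overexpression arrays read 9.56, 7.08, 6.04, 5.91 and 9.35. The smoke controls read 7.81, 5.64, 5.10, 6.15 and 5.34, and the room air controls 4.20, 5.36, 5.87, 5.95 and 5.72. Overexpression replicates 1 and 5 were above every control, replicates 2, 3 and 4 lay within the smoke controls, and the difference was 1.58 (exact two-sided permutation p = 0.151, adjusted 0.226). The dimmest probe lay near background on all 10 arrays, between 3.98 and 4.27 on overexpression arrays and between 4.30 and 4.82 on smoke controls. The groups did not overlap there, with the overexpression arrays lower (exact two-sided permutation p = 0.00794, adjusted 0.0238), at a signal that cannot be sized. Vessel arrays of this arm, given without a test, had the same direction on each probe, with overlapping groups. Overexpression and smoke control vessels averaged 5.47 and 7.31 on the brightest probe, 7.84 and 5.62 on the middle and 4.36 and 4.83 on the dimmest. Only 2 of 5 overexpression vessels were above background on the brightest probe, and 2 of 5 smoke control vessels on the middle. The labels do not say which probes could read a transgene, so the direction of the comparison rests on the labels.

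**Figure D1:**
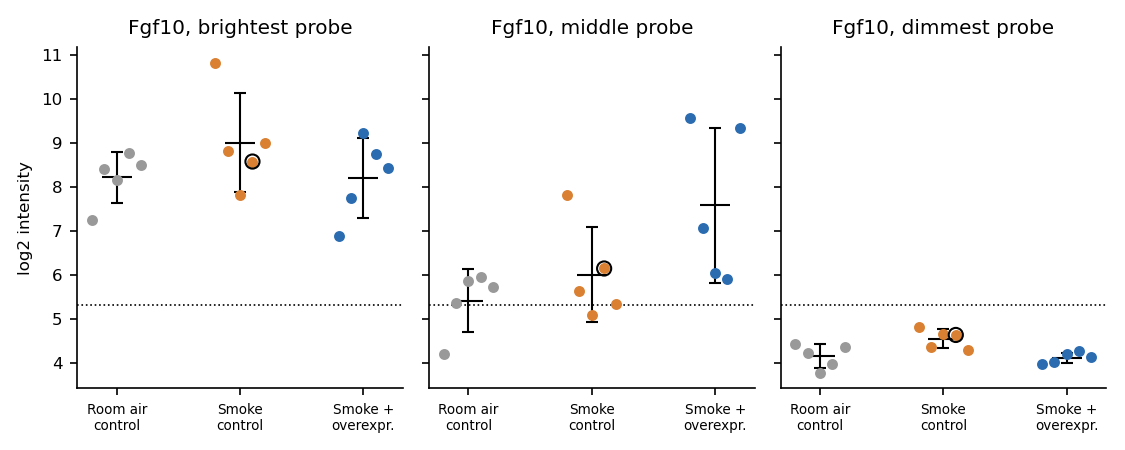
Log2 intensity of the 3 Fgf10 probes on each septa array of the 8-month arm (points; 5 arrays per group, bars mean and SD). The dotted line marks the array percentile of 40, and a ring marks smoke control replicate 4; on the middle probe 2 overexpression arrays sit above 9, and on the brightest probe the groups overlap.

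Across the transcriptome no gene passed the test. Of 17215 genes tested with limma, 0 had an adjusted p under 0.05 (0%), the lowest adjusted p was 0.869, and 839 genes (4.87%) had an unadjusted p under 0.05, where chance alone gives about 860.8. Of these, 343 (1.99%) were higher and 496 (2.88%) lower in the overexpression group; with each array centred on its median the split was 437 higher and 429 lower. The 2 groups did not overlap for 76 genes in the higher direction (0.441%) and 125 in the lower (0.726%). The median difference over all genes was 0.02, with quartiles at -0.40 and 0.43. Without smoke control replicate 4, 0 genes passed, and 327 of 16861 (1.94%) were higher and 686 (4.07%) lower at unadjusted p under 0.05. The median of all genes was then -0.07, and 44.4% had a positive difference, against 51.3% with that array. Counts and signs of list members below are to be read against these shares.

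The spread between arrays sets what could be seen. The median standard error (SE) of a difference was 0.54 and the 95% interval of a typical gene reached 1.17 to either side. Simulated data of this comparison, with 50 genes changed at each size among 17215, gave calls for 0% of genes changed by 1 log2 unit, 32% at 2 units, 80% at 3 and 88% at 4. Changes under about 2 log2 units were therefore not detectable for most genes, and the count of 0 does not show that they are absent. Every gene named below failed the test over all genes, and its values describe these 10 arrays.

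**Figure D2:**
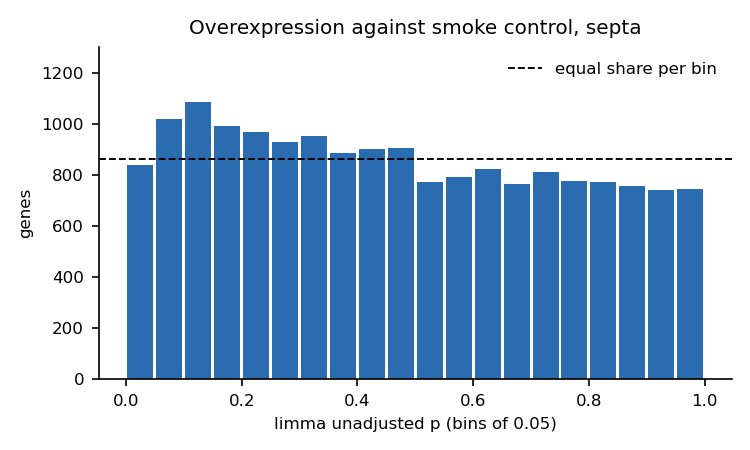
Number of genes in each bin of 0.05 of the limma unadjusted p, for 17215 genes in overexpression against smoke control septa. The dashed line is an equal share per bin; the lowest bin holds 839 genes and the tallest 1083.

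The FGF pathway gave no difference past the test. Of 20 ligands, receptors and binding proteins tested, 10 had a positive and 10 a negative difference, 0 had an unadjusted p under 0.05, and the median was 0.04, or -0.28 with 8 positive without smoke control replicate 4. The receptor Fgfr2 read 9.77, 9.67, 9.53, 9.06 and 8.74 on overexpression arrays and 9.09, 8.41, 9.39, 7.75 and 9.29 on smoke controls. Most overexpression arrays were in the upper part of an overlapping range, with a difference of 0.57 and a 95% interval from -0.35 to 1.48. The lowest Fgfr2 reading, 7.75, was on smoke control replicate 4, so part of that difference came from this array. Fgfr1, the receptor of mesenchymal cells, differed by -1.23 ± 0.61 (SE), a value that included 11.10 on smoke control replicate 4 and was -0.64 without that array. Fgf7, which shares the receptor Fgfr2b with Fgf10, differed by 0.59 ± 0.82 (SE) and by -0.30 without smoke control replicate 4.

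Among targets and feedback inhibitors, 15 of 24 tested had a positive difference, the median was 0.08, and 1 had an unadjusted p under 0.05. It was Spry4, a Sprouty inhibitor of receptor signalling. Spry4 read 7.57, 6.11, 7.56, 7.24 and 5.15 on overexpression arrays and 7.42, 8.04, 7.14, 9.35 and 8.46 on smoke controls. The groups overlapped, and the difference was -1.36 ± 0.58 (SE; limma unadjusted p = 0.037, adjusted p = 0.869). It was -1.04 without smoke control replicate 4 (limma unadjusted p = 0.0814). Without that array the list had 10 of 24 positive, against 44.4% of all genes, and a median of -0.16. At unadjusted p under 0.05, 1 was then higher and 0 lower.

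The ETS factors went in opposite directions without passing. Etv4 differed by 1.12 ± 0.90 (SE), and by 0.33 without smoke control replicate 4, on which it read 4.23. Etv5, also a regulator of type 2 cells, differed by -0.67 ± 0.41 (SE). The phosphatase Dusp6 read 12.64 to 13.16 on overexpression arrays and 12.09 to 14.57 on controls, a difference of -0.32 with a 95% interval from -1.29 to 0.65. Spry1 differed by -0.47 and Spry2 by 0.45 (95% intervals from -1.46 to 0.52 and from -0.63 to 1.53); for Spry2, 1 of 2 probes had that direction.

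Of the 44 gene lists, alveolar macrophage genes had the lowest median difference. It was -0.78, with 17 of 21 genes tested negative, against 0.02 and 51.3% positive over all genes. At unadjusted p under 0.05, 2 of 21 were lower and 0 higher, against 2.88% and 1.99% of all genes, and 0 had groups that did not overlap. The mean of the list ran from 9.41 to 11.16 on overexpression arrays, from 9.56 to 12.01 on smoke controls and from 8.36 to 10.09 in room air, so the groups overlapped. The median stayed between -1.16 and -0.48 as each array was left out. Without smoke control replicate 4 it was -1.04, with 6 of 21 lower at unadjusted p under 0.05, against 4.07% of all genes. In tissue samples, fewer cells of a type and less RNA per cell cannot be told apart.

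The 2 macrophage genes at unadjusted p under 0.05, like other genes named below with overlapping groups, were picked out after their values were seen. Ctsk, the collagen- and elastin-degrading cathepsin K, read 6.21, 6.55, 7.47, 9.01 and 8.85 on overexpression arrays. It read 10.84, 8.22, 11.33, 12.60 and 10.68 on smoke controls, and 4.34, 5.16, 5.29, 4.33 and 5.44 in room air. All overexpression arrays were below 4 of the 5 smoke controls and above every room air array, and the difference was -3.12 ± 0.80 (SE; limma unadjusted p = 0.00198, adjusted p = 0.869). Itgax, the integrin CD11c of alveolar macrophages and dendritic cells, differed by -2.07 ± 0.78 (SE; limma unadjusted p = 0.0213), with 1 of its 3 probes in that direction.

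Other macrophage markers overlapped widely. Marco, a scavenger receptor, read 11.65 to 12.60 on overexpression arrays and 10.00 to 14.63 on smoke controls, a difference of -0.59 ± 0.74 (SE). Siglecf, the surface lectin that marks alveolar macrophages, differed by -1.22 ± 1.03 (SE), and by -2.24 without smoke control replicate 4, on which it read 4.04. Chil3, a chitinase-like protein abundant in these cells, read 12.15 on smoke control replicate 4 and 15.67 or more on the other controls. Its difference was 0.52, and -0.22 without that array. On overexpression arrays Chil3 read 15.11 to 15.94, near the highest value of the series, 15.98. So close to the top of the scale, the size and sign of its difference carry little meaning.

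Genes of lipid-laden macrophages, of which 5 are also in the list above, had a median of -0.40, with 16 of 24 negative. At unadjusted p under 0.05, 4 were lower, against 2.88% of all genes, and 1 of these was Itgax, already counted above. Trem2, a lipid receptor of such macrophages, read 11.41, 10.19, 10.82, 10.50 and 10.85 on overexpression arrays and 12.44, 10.79, 12.74, 13.51 and 12.05 on smoke controls. Only smoke control replicate 2 fell within the overexpression range, and the difference was -1.55 ± 0.50 (SE; limma unadjusted p = 0.00848, adjusted p = 0.869). The lysosomal membrane protein Cd63 differed by -1.50 ± 0.57, with 10 of 10 probes in that direction, and the lysosomal protease Ctsb by -0.98 ± 0.39 (SE; limma unadjusted p = 0.0224 and 0.026). Spp1, osteopontin, differed by -0.10 ± 0.41, Gpnmb by -0.82 ± 0.68 and the macrophage elastase Mmp12 by 0.59 ± 0.82 (SE). Clec4n, the fungal receptor dectin-2 of myeloid cells, read 8.65 to 10.53 on overexpression arrays, 10.67 to 12.77 on smoke controls and 7.22 to 9.45 in room air. The first 2 of these groups did not overlap for Clec4n, and the difference was -1.88 ± 0.50 (SE; limma unadjusted p = 0.00242, adjusted p = 0.869).

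Monocyte, interstitial macrophage and dendritic cell genes had a median of 0.11, or -0.18 without smoke control replicate 4, with 1 of 19 higher at unadjusted p under 0.05 in both. It was Csf1r, the receptor for macrophage colony-stimulating factor, at 1.08 ± 0.40 (SE), with 1 of 2 probes in that direction.

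**Figure D3:**
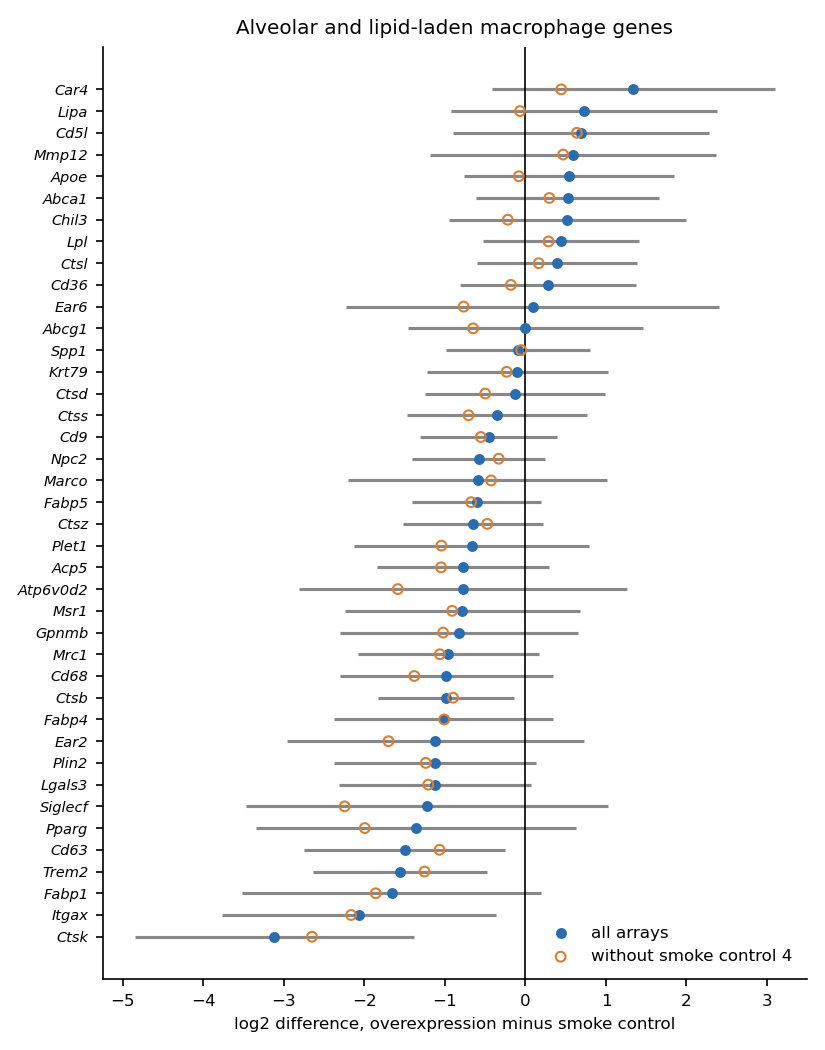
Log2 difference, overexpression minus smoke control, of each tested gene of the alveolar and lipid-laden macrophage lists (filled points, with 95% intervals), and the same without smoke control replicate 4 (open points). Most points lie below 0, from 1.34 for Car4, which capillary cells also express, to -3.12 for Ctsk, and most intervals include 0.

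No matrix gene passed the test, and the lists held single genes without overlap between the groups. Eln, elastin, read 10.69, 10.94, 11.59, 10.66 and 11.12 on overexpression arrays, and 9.34, 10.08, 8.60, 8.73 and 9.91 on smoke controls. In room air it read 10.25, 11.42, 10.51, 11.64 and 10.56. Every overexpression array was above every smoke control and within the room air range. The difference was 1.66 ± 0.41 (SE; limma unadjusted p = 0.00145, adjusted p = 0.869), and 1 of its 2 probes had that direction. The elastic fibre list as a whole had a median of -0.20, with 7 of 17 genes positive, so Eln did not stand for its list.

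Fn1, fibronectin, read 12.88, 12.59, 12.71, 12.72 and 12.26 on overexpression arrays and 13.25, 13.44, 13.71, 14.60 and 13.42 on smoke controls. The groups did not overlap, and the difference was -1.05 ± 0.37 (SE; limma unadjusted p = 0.0137, adjusted p = 0.869), or -0.82 without smoke control replicate 4. Vcan, the proteoglycan versican, read 6.55 to 9.67 on overexpression arrays and 4.82 to 5.89 on smoke controls, of which 2 of 5 were near background. Its difference was 2.41 ± 0.58 (SE), with 3 of 3 probes in that direction. Scx, the tendon transcription factor scleraxis, read 7.03 to 7.79 on overexpression arrays, 8.28 to 9.77 on smoke controls and 8.74 to 9.83 in room air, a difference of -1.74 ± 0.41 (SE).

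Myofibroblast genes had a median of -0.18, or -0.56 without smoke control replicate 4, with Fn1 the only 1 of 17 at unadjusted p under 0.05. Collagens and basement membrane genes had a median of -0.19, or -0.41 without that array, with 1 of 24 higher, Col8a1 at 1.83 ± 0.66 (SE), near background on 3 of 5 smoke controls. Metalloproteinases and their inhibitors had a median of -0.48, which ran from -0.53 to -0.03 as each array was left out. At unadjusted p under 0.05, 4 of 22 were lower, against 2.88% of all genes. These were Mmp3 at -2.02 ± 0.76, against a level near background, Adam17, which sheds growth factors and TNF, at -1.47 ± 0.62, Adamts2 at -1.41 ± 0.60 and Mmp19 at -1.20 ± 0.52 (SE). Of these only Mmp3, without smoke control replicate 4, kept an unadjusted p under 0.05, at 0.0496, and the list had 1 higher and 2 lower of 21. Adventitial fibroblast and mesothelial genes had 2 higher and 2 lower of 17, a median of -0.06, or 0.22 without smoke control replicate 4, and non-overlap for Dpep1, a dipeptidase, at 1.30 ± 0.44 (SE). Sfrp2, a Wnt modulator of fibroblasts, read 8.67, 6.99, 6.93, 7.61 and 4.45 on overexpression arrays and was near background on 5 of 5 smoke controls. Sfrp2 thus passed the filter on low values only through the overexpression arrays, and its place in the counts of that list supports nothing. Alveolar fibroblast and lipofibroblast genes had a median of -0.23, with 8 of 22 positive.

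Alveolar epithelial markers gave no difference past the test. Sftpc, surfactant protein C, read 15.90 to 15.98 on overexpression arrays and 15.96 to 15.98 on smoke controls other than replicate 4, where it read 15.17; these readings are at the top of the scale and could hardly go higher. Type 2 cell genes had a median of -0.21, with 10 of 23 positive and 0 at unadjusted p under 0.05. The surfactant lipid transporter Abca3 differed by -0.85 ± 0.51 and surfactant protein B (Sftpb) by 0.71 ± 0.40 (SE). Type 1 cell genes had a median of 0.04, with 14 of 20 positive, and of -0.21 with 7 of 20 positive without smoke control replicate 4, with 0 at unadjusted p under 0.05 in both. Ager, the receptor for advanced glycation end products, differed by 0.04 ± 0.36 (SE).

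Genes of transitional epithelium, the keratin-rich state between type 2 and type 1 cells, had a median of -0.53, with 15 of 17 negative. The list mean ran from 9.49 to 10.84 on overexpression arrays, 10.58 to 11.15 on smoke controls and 9.45 to 10.08 in room air. At unadjusted p under 0.05, 3 were lower and 1 higher, and the groups overlapped for each. Keratin 19 (Krt19) read 8.41, 8.16, 8.76, 10.34 and 10.04 on overexpression arrays and 9.66, 10.85, 10.47, 14.48 and 10.72 on smoke controls. Its difference of -2.09 ± 0.82 (SE; limma unadjusted p = 0.0247) was -1.28 without smoke control replicate 4. The integrin chain Itgb6, which helps activate TGF-beta, differed by -1.38 ± 0.61 and Tnip3, an inhibitor of NF-kappaB that was near background on 4 of 5 overexpression arrays, by -1.14 ± 0.47 (SE). Krt8 differed by -0.85 ± 0.53 (SE). Without smoke control replicate 4 the median of the list was -0.54, with 2 higher and 2 lower at unadjusted p under 0.05, and Itgb6 was no longer among them.

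Cell cycle inhibitors went in opposite directions. Cdkn1a, the p53 target p21 and the higher gene of the transitional list, differed by 1.17 ± 0.43 (SE; limma unadjusted p = 0.018), with 3 of 3 probes in that direction. Cdkn2a, the locus of p16 and a marker of senescence, read 5.94, 6.14, 5.34, 6.32 and 5.63 on overexpression arrays and 7.24, 6.65, 7.34, 10.74 and 7.98 on smoke controls. In room air it read 6.17 to 7.59. The overexpression arrays were below every smoke control, and the difference of -2.12 ± 0.67 (SE; limma unadjusted p = 0.00776, adjusted p = 0.869) was -1.43 without smoke control replicate 4. E2f1, a transcription factor of S phase, did not overlap either, at -1.49 ± 0.45 (SE). The whole cell cycle list had a median of 0.07, with 15 of 26 positive. Without smoke control replicate 4 its median was -0.14, with 10 of 23 positive, against 44.4% of all genes.

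No endothelial gene passed the test. Capillary genes had a median of 0.10, with 13 of 23 positive and 2 higher at unadjusted p under 0.05. These were Pecam1, the adhesion molecule CD31, at 0.92 ± 0.41 and the VEGF receptor Flt1 at 1.00 ± 0.44 (SE). Neither kept it without smoke control replicate 4 (limma unadjusted p = 0.0569 and 0.0747). Without that array 1 gene was lower, and 10 of 23 were positive, against 44.4% of all genes. Arterial, venous and lymphatic genes had a median of -0.02, and 3 of 18 did not overlap in the higher direction, against 0.441% of all genes. Vwf, von Willebrand factor, read 12.71, 13.26, 13.56, 12.79 and 13.25 on overexpression arrays and 12.38, 12.06, 12.46, 10.00 and 12.71 on smoke controls. At 2 decimals overexpression replicate 1 and smoke control replicate 5 read alike, so the gap is slight, and the difference of 1.19 ± 0.51 (SE) was 0.71 without smoke control replicate 4. Slc6a2, the noradrenaline transporter, differed by 1.84 ± 0.50 (SE), with 2 of 2 probes in that direction, and Eln was the other.

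Nos3, the endothelial nitric oxide synthase, was the only 1 of 25 nitric oxide and cGMP genes at unadjusted p under 0.05. It read 6.25, 8.06, 9.67, 8.94 and 8.17 on overexpression arrays and 5.62, 7.91, 7.11, 4.03 and 5.11 on smoke controls. The groups overlapped, and the difference was 2.26 ± 0.78 (SE; limma unadjusted p = 0.0133, adjusted p = 0.869), against smoke controls of which 2 of 5 were near background. Nos2, the inducible synthase, read 8.01 to 8.66 on overexpression arrays and 8.14 to 9.32 on smoke controls except replicate 4, at 4.70. Its difference was 0.53, and -0.26 without that array. The median of that list, 0.23, was -0.19 without smoke control replicate 4. VEGF and angiopoietin genes had a median of 0.18, with 18 of 24 positive, and Notch1 had an unadjusted p under 0.05 in the lower direction at -1.63, and at -0.99 (limma unadjusted p = 0.057) without smoke control replicate 4. The median of that list without the array was 0.06.

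Immune lists outside the macrophages were mixed. Neutrophil genes had a median of 0.42, with 15 of 20 positive and 0 at unadjusted p under 0.05, and their list mean ran from 10.03 to 11.54 on overexpression arrays and from 9.55 to 11.11 on smoke controls. Erythrocyte and platelet genes had a median of 0.53, with 10 of 13 positive and 1 at unadjusted p under 0.05, the haem synthesis enzyme Alas2 at 1.79 ± 0.75 (SE), and 0 without smoke control replicate 4. Of inflammatory cytokines and chemokines 2 of 28 were higher, oncostatin M (Osm) at 1.39 ± 0.52 and Tnf at 1.34 ± 0.51 (SE), the latter near background on 3 of 5 smoke controls. T and NK cell genes had a median of 0.02 with 3 of 21 lower, among them the T cell receptor chain Cd3g at -1.56 ± 0.63 (SE), without overlap. Without smoke control replicate 4 that median was -0.28, 1 of 21 was lower, and Cd3g no longer had an unadjusted p under 0.05 (limma unadjusted p = 0.0639). B cell and plasma cell genes had a median of -0.18, or -0.52 without that array.

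Basophil and mast cell genes rested on few arrays. Mcpt8, a protease of basophils, read 10.25, 9.72, 7.76, 3.95 and 11.35 on overexpression arrays, and 4.33, 5.59, 4.85, 4.11 and 5.17 on smoke controls. It was far above background on 4 overexpression arrays and near background on replicate 4 and on 4 of 5 smoke controls. The difference of 3.80 ± 1.11 (SE; limma unadjusted p = 0.00494, adjusted p = 0.869) has no exact size, and the gene passed the filter on low values only through the overexpression arrays, so its p supports nothing. Ms4a2, the beta chain of the IgE receptor, differed by 1.67 ± 0.66 (SE). The list had a median of 0.36, with 2 of 9 higher at unadjusted p under 0.05. That count includes Mcpt8, so it supports nothing about the list.

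Interferon-stimulated genes had a median of -0.23, with 15 of 24 negative and 4 lower at unadjusted p under 0.05, against 2.88% of all genes. Oas1a, an antiviral RNA sensor, did not overlap, at 6.10 to 8.39 on overexpression arrays and 8.51 to 9.42 on smoke controls, a difference of -1.28 ± 0.47 (SE). The guanylate-binding protein Gbp3 differed by -1.57 ± 0.51, Ifi44 by -1.74 ± 0.69 and Ifit1 by -1.09 ± 0.39 (SE), the last 2 against overexpression arrays of which 3 and 4 were near background. Without smoke control replicate 4 the median was -0.36, with 6 of 24 lower, against 4.07% of all genes. MHC class II genes had a median of -0.33, with 11 of 14 negative, and the peptide loader H2-DMb1 did not overlap, at -1.16 ± 0.46 (SE), with 1 of 2 probes in that direction and -0.77 without smoke control replicate 4.

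Smoke-response genes did not pass either. NRF2 targets, the antioxidant programme induced by smoke, had a median of -0.20 with 3 of 22 lower at unadjusted p under 0.05. They were haem oxygenase 1 (Hmox1) at -1.38 ± 0.53, with 1 of 2 probes in that direction, sulfiredoxin (Srxn1) at -1.63 ± 0.69 and peroxiredoxin 1 (Prdx1) at -1.11 ± 0.51 (SE). For each of these, smoke control replicate 4 held the highest value, and the differences without it were -1.08, -1.10 and -0.72, with Srxn1 and Prdx1 no longer at unadjusted p under 0.05. Among aryl hydrocarbon receptor genes 2 of 10 were lower, Cyp1a1 at -1.02 ± 0.42 and Tiparp at -0.98 ± 0.45, and the oxygenase Fmo2 was higher at 1.76 ± 0.65 (SE). Leaving out smoke control replicate 4 left 0 of 9 lower and 1 higher. Fmo2 read 12.77 to 15.63 on overexpression arrays, 9.98 to 12.73 on smoke controls and 13.00 or more in room air, with 4 of 4 probes in that direction.

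Among the other lists, adipocyte and skeletal muscle genes had a median of 0.46, with 8 of 10 positive and 0 at unadjusted p under 0.05. Circadian clock genes had a median of -0.12, Wnt genes -0.09, BMP genes -0.03, immediate-early and heat shock genes 0.09, or -0.12 without smoke control replicate 4, and oxidative phosphorylation genes -0.10. Genes of the integrated stress and unfolded protein response had a median of -0.20. Over the 809 distinct list members tested, 21 were higher and 40 lower at unadjusted p under 0.05, against 1.99% and 2.88% of all genes. Airway genes had a median of 0.13 and vascular smooth muscle genes 0.23, with 0 at unadjusted p under 0.05 in each.

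**Figure D4:**
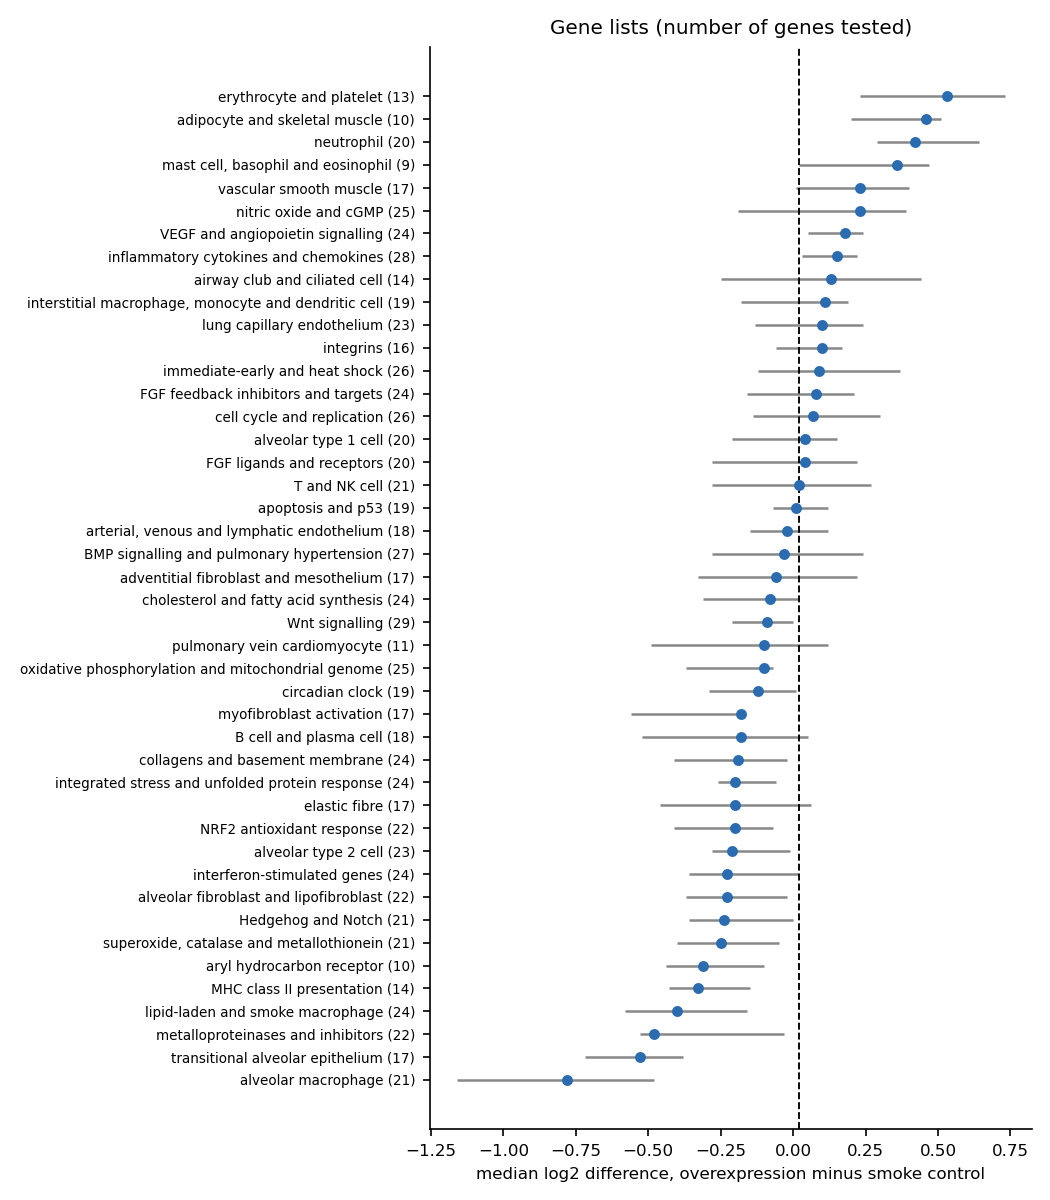
Median log2 difference, overexpression minus smoke control, of each gene list (points, number of genes tested in brackets) and its range as each of the 10 arrays is left out (bars). The dashed line is the median of all genes, 0.02; alveolar macrophage genes lie lowest at -0.78 and erythrocyte and platelet genes highest at 0.53.

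Ranked by unadjusted p, without overlap between the groups, 15 genes were open to naming in each direction, and 25 of these 30 had all their probes in 1 direction, 11 of them with a single probe. In the positive direction the lowest p among them was that of Reln, an extracellular glycoprotein best known from neuronal migration. Reln read 8.29, 9.14, 9.47, 8.12 and 9.55 on overexpression arrays and 7.71, 7.10, 5.64, 6.76 and 6.46 on smoke controls, a difference of 2.18 ± 0.47 (SE; limma unadjusted p = 0.000555, adjusted p = 0.869). Only 2 of its 6 probes had that direction. Sult1a1, a sulfotransferase of phenols and drugs, read 10.38 to 12.04 against 8.74 to 10.25, a difference of 1.95 ± 0.45 (SE), with 2 of 2 probes in that direction. The small heat shock protein Hspb6 differed by 2.44 ± 0.58 and the endothelial lipase Lipg by 1.64 ± 0.41 (SE). Slc18a2, the vesicular monoamine transporter, differed by 1.40 ± 0.39 (SE). Rsph3a, of the ciliary radial spoke, differed by 2.15, with 1 of 2 probes in that direction. Prrc2c, Lgalsl, Zfp213, Nacc1, Wscd1 and Gorasp2, beside Eln, Vcan and Slc6a2 above, completed the list, with differences between 1.33 and 1.83 for these 6.

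In the negative direction Bok, a member of the BCL-2 family, had the lowest p among the genes open to naming, which leave out clone-named genes; 8430429K09Rik, a clone-named gene, had a lower one at -2.07. It read 4.63, 4.64, 6.06, 6.27 and 5.02 on overexpression arrays, 9.25, 7.19, 7.74, 7.25 and 7.86 on smoke controls and 4.00 to 5.54 in room air. The overexpression arrays lay near background on 3 of 5, below every smoke control, and the difference was -2.54 ± 0.51 (SE; limma unadjusted p = 0.000295, adjusted p = 0.869). Nudcd2 read 5.15 to 7.10 against 7.73 to 8.37, a difference of -2.06 ± 0.42 (SE). Mks1, of the transition zone of cilia, differed by -1.71 ± 0.44, and Tada2a, of histone acetyltransferase complexes, by -1.84 ± 0.47 (SE). The calcium-binding protein S100a14 differed by -2.30 ± 0.60 and Ttf2, a transcription termination factor, by -1.94 ± 0.50 (SE). Ccdc74a, Zbtb11os1, Mettl24, Togaram2, Aldh5a1, Enkur and Tspan6 lay between -2.05 and -1.33. Of these, Ccdc74a was near background on 5 of 5 overexpression arrays, so it passed the filter on low values only through the smoke controls. Its difference has no exact size, and its p supports nothing.

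**Figure D5:**
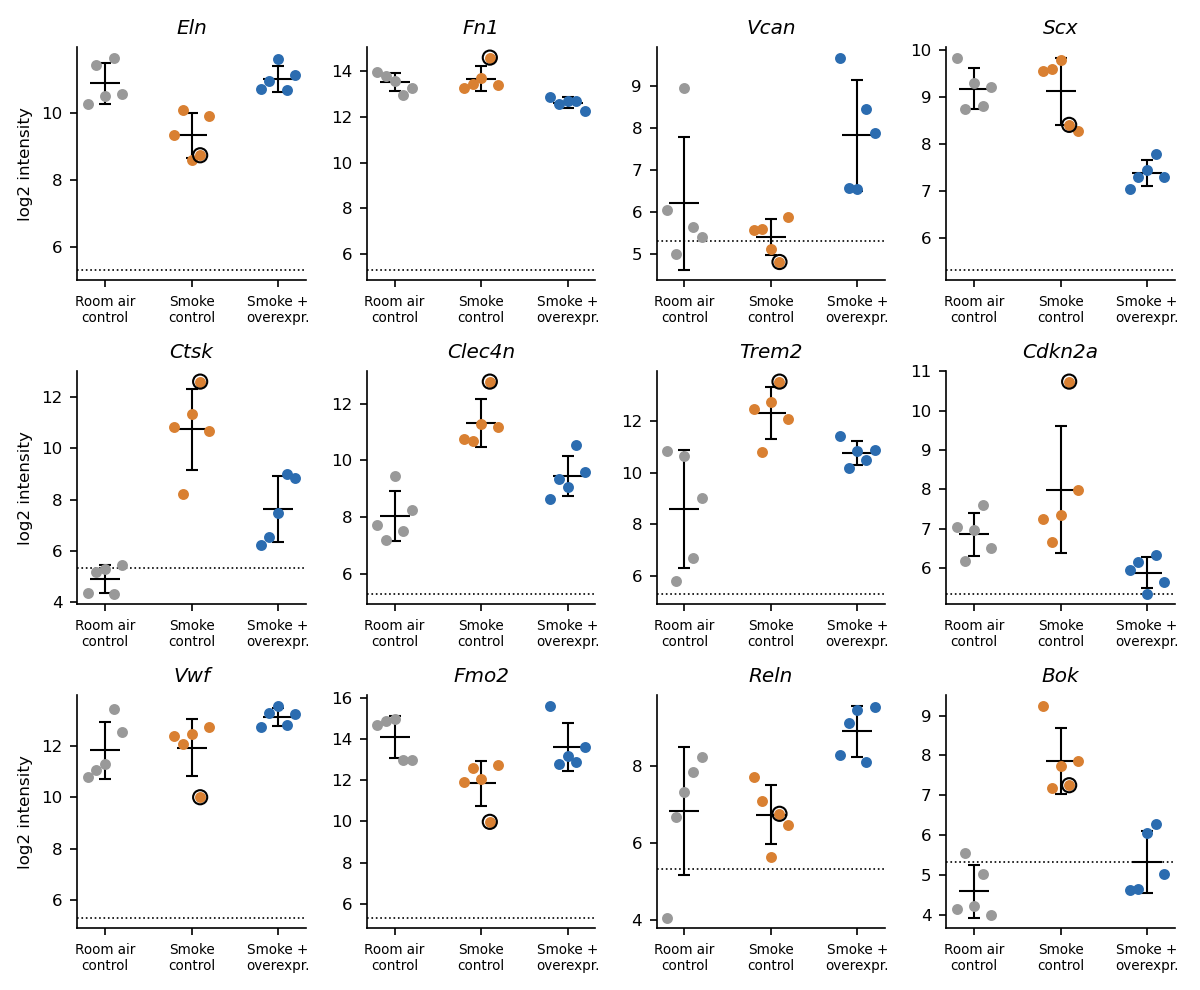
Log2 intensity of 12 genes named in the text on each septa array of the 8-month arm (points; 5 arrays per group, bars mean and SD, vertical scales differ). The dotted line marks the array percentile of 40 and a ring smoke control replicate 4; Eln and Vcan lie higher and Fn1, Scx, Clec4n, Cdkn2a and Bok lower on every overexpression array than on every smoke control.

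The same contrast in laser-microdissected vessels gave the test of whether a difference is particular to septa. In vessels alone 0 of 17818 genes passed and 925 (5.19%) had an unadjusted p under 0.05. On the 20 arrays of both compartments 0 of 19760 genes had a difference between compartments at limma adjusted p under 0.05 (0%), 863 (4.37%) had an unadjusted p under 0.05, and chance alone gives about 988. The lowest adjusted p was 0.531. The fit treated the 20 arrays as independent, and the labels do not say whether septa and vessel arrays came from the same animals. The lowest unadjusted p was that of Kdf1, an epithelial differentiation factor, at -1.12 in septa and 2.30 in vessel (limma unadjusted p = 2.69e-05). Gemin4, of the complex that assembles spliceosomal particles, differed by -2.03 in septa and 2.54 in vessel, Asap3 by 0.16 and -4.47, Runx1t1 by 1.21 and -3.05, and Gm9831, a predicted gene, by 0.79 and -2.65. Of the genes described above, Eln was at 1.66 in septa and -0.51 in vessel, and Ctsk at -3.12 and -0.59; both were picked for their difference in septa, so these are descriptions. None of these gaps passed over all genes.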

How the data were processed

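The arrays are 1-colour Agilent arrays with 62976 features. The authors deposited log2 intensities; limma, without a version, is named per the submitters' processing notes. At each percentile the 68 arrays differ by at most 0.00352, so the deposited log2 values were already quantile normalised. The sources used here do not state background correction or spot flags. Arrays have no read depth; the number of arrays limits the precision.

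The platform annotation, updated through RefSeq accessions (33708 of 43941 features matched), gave 24583 gene names. The probe with the highest mean over all 68 arrays stood for a gene, which was tested if it lay above the percentile of 40 on at least 4 of the 10 arrays without missing values. The 2 groups alone were fitted with limma 3.58.1 in R 4.3.3, two-sided, with Benjamini-Hochberg adjustment over 17215 genes. The difference between compartments came from a limma interaction fit of 20 arrays. Fgf10 probes were compared by exact permutation. The fit was tested on simulated data. List members without a value are not analysed here. Genes named were the 15 largest changes past the threshold per direction, filled by smallest p among genes without overlap that lay above the percentile of 40 on all 5 arrays of the higher group, without predicted genes. Members of lists at unadjusted p under 0.05 whose groups overlap were named after their values were seen.

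The comparison, members, lists, filters and alternatives were chosen with earlier results of these data known. The series' design text calls the replicates biological, without naming animals. Same-numbered arrays did not deviate together (correlations from -0.216 to 0.0553), so they were not paired. Xist, the RNA of the inactive X chromosome, was over 9.5 on 3 of 5 arrays in each group.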

Additional observations from a re-analysis of the deposited data

Results flagged for a closer look

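Of 96 groups of 5 arrays examined, 4 held an array far from the other 4 by Dixon's test at its 95% critical value, and chance gives about 1 in 20. All 4 were among the smoke controls. Sftpc read 15.17 on smoke control replicate 4 and 15.96 to 15.98 on the others, readings at the top of the scale whose spread is compressed, so the gap has no weight. Nos2 read 4.70 on the same array and 8.14 to 9.32 on the others, and Fgfr1 read 11.10 there and 7.55 to 8.56 on the others. Mettl24 read 9.14 on smoke control replicate 2 and 8.52 to 8.68 on the others.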

How the results depend on the processing

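No gene passed limma at adjusted p under 0.05 under any of the 20 alternatives, which were no filter, a stricter filter, the mean of all probes, centred arrays, array weights, trend and robust variances, the Xist covariate, a replicate block, all 7 septa groups with and without their low-correlation arrays, and each array left out. The fit of all 7 septa groups without low-correlation arrays was chosen after seeing the data. The 839 genes at unadjusted p under 0.05 became 1548 with array weights, 399 in the fit of all 7 septa groups and 1460 in that fit without its low-correlation arrays. With the replicate block they were 764, and the arrays did not correlate best with their own number. As each array was left out the count ran from 537, without overexpression replicate 1, to 1043. Signs of the 30 named genes were kept in 594 of 594 fits. They were picked for groups that do not overlap, so leaving out 1 array could not reverse a sign. The count therefore adds no support. Of 220 fits for the followed genes 7 reversed. These were Fgf10 at 0.11 and Spry2 at -0.08 with the mean of all probes; Spry2 at -0.07, Sftpc at -0.04 and Nos2 at -0.03 with array weights; and Sftpc at -0.05 and Nos2 at -0.26 without smoke control replicate 4. As arrays were left out, Sftpc ran from -0.05 to 0.15 and Nos2 from -0.26 to 0.90. Sftpc lies at the top of the scale, so its size and sign carry no meaning. The cause was not tested. Of 484 list medians recomputed, 11 moved by more than the spread between arrays. The middle Fgf10 probe ranged from 1.09 to 2.03 as arrays were left out, with 2.03 (exact two-sided permutation p = 0.0476) without smoke control replicate 1. For the difference between compartments 0 genes passed under any alternative, and its 5 genes of lowest p kept their sign in 110 of 110 fits. These 5 were picked by their p on the same arrays, so the kept signs add no support either. In the simulation of this comparison 32% of genes changed by 2 log2 units were called.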
